A study of Danio rerio with 16 samples.

Results

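The genes described are 8 zebrafish genes of the p53 pathway (mdm2, cdkn1a, ccng1, phlda3, bbc3, baxa, gadd45aa and sesn1). They were found by symbol among the 32520 genes of the count table, where baxa is the name of 2 rows, so that 9 rows matched. RNA of whole embryos, at 15 h post fertilization (hpf) by the labels, was sequenced from 8 genotypes with 2 libraries each, 16 in all. Wild-type embryos (WT) are called siblings in the paper. They stood beside single mutants (gfi1b-/-, gfi1ab-/-, gfi1aa-/-), double mutants (gfi1b/1ab DM, gfi1aa/1b DM, gfi1aa/1ab DM) and a mutant of all 3 genes, gfi1 TM. The mutations are the allele smu10 for gfi1aa, smu11 for gfi1b (an insertion) and smu12 for gfi1ab (a deletion), and no other allele or treatment is labelled. Single mutants were sorted by genotype from crosses of heterozygous fish. gfi1aa/1b DM came from parents homozygous for the gfi1b mutation and heterozygous for gfi1aa, gfi1aa/1ab DM from parents homozygous for gfi1ab and heterozygous for gfi1aa, and gfi1 TM from parents homozygous for gfi1aa and gfi1b and heterozygous for gfi1ab. gfi1 TM and the double mutants lacking gfi1aa thus had parents already homozygous for a mutation, so WT embryos cannot be their siblings. The crosses behind WT and gfi1b/1ab DM, the clutch of each library and the number of embryos in it are not given in the sources. So p-values measure the spread between libraries, which may be technical. Mutants of different genotype came from different crosses, so a gene's loss cannot be told apart from a difference in cross or parents' genotype. Below, loss of a gene, also where it is said to raise or lower RNAs, names a comparison of genotypes.

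The p53 pathway is held at a low level in unstressed cells by Mdm2, a ubiquitin ligase. DNA damage, stalled ribosomes or other stress release the pathway, which then switches on genes that stop the cell cycle (cdkn1a, ccng1, gadd45aa), kill the cell (bbc3, baxa), restrain growth signals (phlda3, sesn1) or shut the pathway off again (mdm2). In zebrafish embryos raised levels of its target RNAs are often used as a sign of stress in mutants and in embryos injected with morpholinos. Gfi1aa, Gfi1b and Gfi1ab are zinc finger repressors of blood and endothelial development. The comparisons below ask whether loss of any of them, alone or together, came with higher levels of these RNAs.

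The libraries held between 15657371 and 22524501 counts on genes. Levels are given as CPM, that is as counts scaled to the same TMM-normalized library size. Differences are log2 fold changes with their standard error (SE) from the edgeR quasi-likelihood test on 19903 genes, and a gene counts as changed at a Benjamini-Hochberg adjusted p under 0.05. Of the 9 rows, 8 passed the filter on low counts. The second baxa row (ENSDARG00000089129) had 2 to 13 counts per library and was not tested. The tested rows ranged from bbc3, with 24 to 69 counts per library, to ccng1, with 5416 to 11872. CPM is not corrected for transcript length, so levels are compared between libraries and not between genes. gfi1 TM replicate 2 stood apart from the other libraries, with 77.3% of its reads on genes (79.6% to 80.4% in the others), 5.57% mapping to several places (at most 4.39%) and 10.4% outside annotated features (at most 9.60%). It also had the highest mdm2 level of all libraries. Only some of the comparisons that rest on it are given without it below. Counts of the gene lists in gfi1 TM are not among them. In RNA from whole embryos, fewer cells of a type and less RNA per cell cannot be told apart.

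No general rise across the mutants was seen. In the average of the 7 mutants against WT, cdkn1a rose and mdm2 fell, and the other 6 genes did not pass the test. Thus 1 of 8 rose where 7.36% of all tested genes did, and 1 of 8 fell where 8.06% did. The levels were instead highest in the genotypes that lack gfi1aa and gfi1ab together. gfi1aa/1ab DM had the highest mean for 4 genes (cdkn1a, phlda3, bbc3 and baxa) and gfi1 TM for 3 (ccng1, gadd45aa and sesn1), and gfi1 TM was among the top 2 genotypes for all 8. mdm2 was highest in WT. How often gfi1aa/1ab DM and gfi1 TM rank highest over all genes was not counted. Their replicates differed most over all genes (SD of the log2 difference 0.479 and 0.602). The plot of the levels shows each library.

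**Figure D1:**
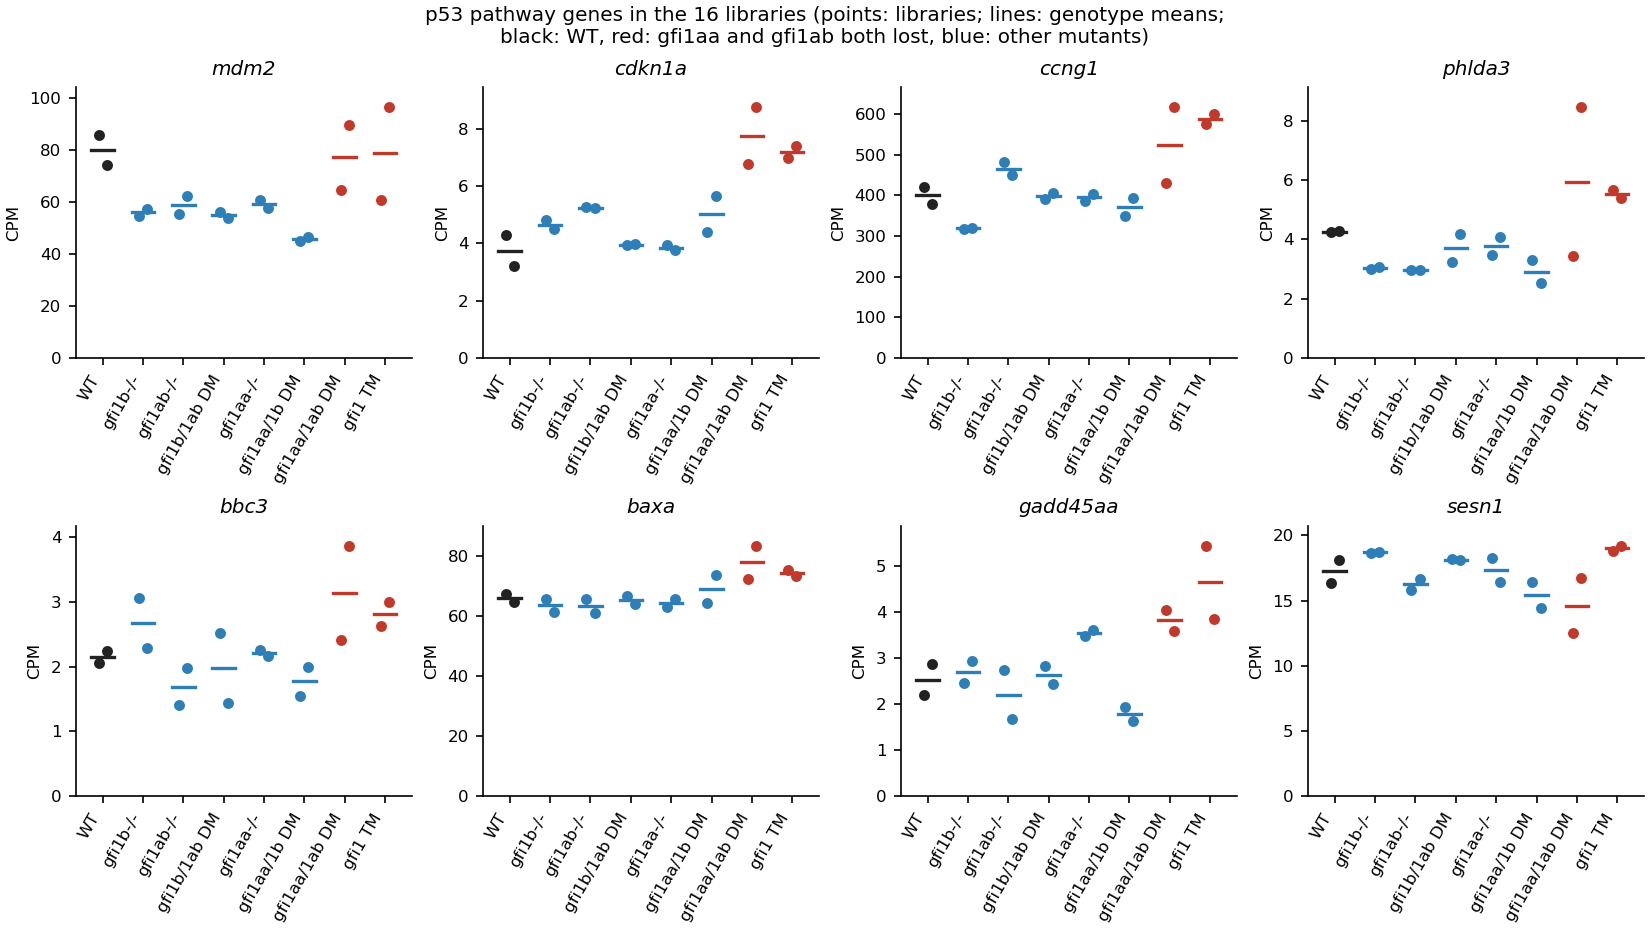
CPM (vertical axis, starting at 0) of the 8 p53 pathway genes in 2 libraries of each of 8 genotypes (horizontal axis). Points are libraries and lines are genotype means, with WT in black, the genotypes lacking both gfi1aa and gfi1ab in red and the other mutants in blue. The red libraries are highest for cdkn1a (6.76 to 8.75 CPM), while for mdm2 the WT libraries (74.1 and 85.7 CPM) stand among the red ones.

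cdkn1a (ENSDARG00000076554) encodes p21, an inhibitor of cyclin-dependent kinases and in many tissues the main arm of the p53 cell cycle arrest. It had 4.30 and 3.19 CPM in WT, 3.94 and 3.77 in gfi1aa-/-, 4.79 and 4.49 in gfi1b-/-, and 5.25 and 5.21 in gfi1ab-/-. Among double mutants, gfi1b/1ab DM had 3.93 and 3.98 CPM, gfi1aa/1b DM 4.39 and 5.66, and gfi1aa/1ab DM 6.76 and 8.75. gfi1 TM had 6.99 and 7.39 CPM. The 4 libraries without gfi1aa and gfi1ab were the highest 4 of the 16, with no overlap with any other genotype. The share of all genes with such a separation was not counted. Against WT, cdkn1a rose by a log2 fold change of 1.05 in gfi1aa/1ab DM (SE 0.19, adjusted p = 0.00147) and of 0.94 in gfi1 TM (SE 0.19, adjusted p = 0.00541). In the other 5 mutants the log2 fold change lay between 0.04 and 0.48, and none passed the test.

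The rise of cdkn1a in gfi1aa/1ab DM kept its call in all 16 fits that each left out 1 library, with log2 fold changes from 0.83 to 1.26. The call in gfi1 TM was lost without WT replicate 2 (0.73, adjusted p = 0.0714). That library has the lowest cdkn1a level of all. The averaged rise over the 7 mutants was 0.48 (SE 0.15, adjusted p = 0.0447), a call lost in 12 of the 16 fits. The value was 0.27 (adjusted p = 0.477) without WT replicate 2 and 0.70 (adjusted p = 0.054) without WT replicate 1. It did not pass with DESeq2 (adjusted p = 0.123), with the replicate block (adjusted p = 0.0569) or without the filter on low counts (adjusted p = 0.0521).

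ccng1 (ENSDARG00000076667) encodes cyclin G1, an early p53 target that in mammals feeds back on Mdm2. It had 422 and 378 CPM in WT, 387 and 404 in gfi1aa-/-, 317 and 320 in gfi1b-/-, and 482 and 450 in gfi1ab-/-. Among double mutants, gfi1aa/1b DM had 350 and 394 CPM, gfi1b/1ab DM 391 and 406, and gfi1aa/1ab DM 431 and 617. gfi1 TM had 576 and 599 CPM. Both gfi1 TM libraries and gfi1aa/1ab DM replicate 2 lay above all others, while gfi1aa/1ab DM replicate 1 fell below both libraries of gfi1ab-/-. Against WT, ccng1 rose by 0.56 (log2, SE 0.12, adjusted p = 0.00788) in gfi1 TM and by 0.39 (SE 0.12, adjusted p = 0.0285) in gfi1aa/1ab DM. Without gfi1aa/1ab DM replicate 2 the second value was 0.11 (adjusted p = 0.463). It was also not called without WT replicate 1 (0.45), WT replicate 2 (0.29) or gfi1aa-/- replicate 1 (0.36). Without WT replicate 2 the value in gfi1 TM was 0.47 (adjusted p = 0.0801).

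gadd45aa (ENSDARG00000043581) belongs to a family of small proteins induced by growth arrest and DNA damage. It had 2.20 and 2.86 CPM in WT, 3.48 and 3.59 in gfi1aa-/-, 2.45 and 2.93 in gfi1b-/-, and 2.74 and 1.66 in gfi1ab-/-. Among double mutants, gfi1aa/1b DM had 1.94 and 1.62 CPM, gfi1b/1ab DM 2.82 and 2.44, and gfi1aa/1ab DM 4.04 and 3.59. gfi1 TM had 5.44 and 3.83 CPM. It was thus low in the double mutant of gfi1aa and gfi1b and high where gfi1ab was lost as well. It rose in gfi1 TM against WT (0.88, SE 0.26, adjusted p = 0.0359) and against gfi1aa/1b DM (1.39, adjusted p = 0.0115), and it fell in gfi1aa/1b DM against gfi1aa-/- (-0.99, adjusted p = 0.0336, where 5.49% of all genes fell). The first of these calls was lost in 5 of the 16 fits without 1 library, with 0.59 (adjusted p = 0.266) without gfi1 TM replicate 1 and 0.70 (adjusted p = 0.204) without WT replicate 1. The other 2 were each lost without either library of gfi1aa/1b DM. The fall was also lost without either library of gfi1aa-/- (-1.01 and -0.97), and the rise against gfi1aa/1b DM without gfi1 TM replicate 1 (1.11). With DESeq2 neither the rise in gfi1 TM against WT (adjusted p = 0.0865) nor the fall against gfi1aa-/- (adjusted p = 0.069) passed. By its name in RefSeq (assembly GRCz12tu, another build than GRCz11), gadd45aa is the only one of the 8 genes on the chromosome of gfi1aa, within 10 Mb of it. The part of linkage to the gfi1aa mutation in its levels was not tested.

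Counted against WT, 3 of 8 genes rose in gfi1 TM (cdkn1a, ccng1 and gadd45aa), where 7.16% of all tested genes rose, and 2 of 8 rose in gfi1aa/1ab DM (cdkn1a and ccng1), where 11.1% did. Without WT replicate 2 the count in gfi1 TM was 0, without gfi1 TM replicate 2 it was 3, and a fit on the 4 libraries compared alone gave 0 in gfi1 TM (adjusted p = 0.126, 0.0695 and 0.21 for cdkn1a, ccng1 and gadd45aa) and 1 in gfi1aa/1ab DM. In gfi1aa/1b DM 1 of 8 fell, mdm2, where 4.73% fell. In gfi1aa-/-, gfi1b-/-, gfi1ab-/- and gfi1b/1ab DM none of the 8 passed the edgeR test, where 12.1%, 9.46%, 10.3% and 10.6% of all genes did. At an unadjusted p under 0.05, 0 rose and 1 fell in gfi1aa-/-, 0 rose and 2 fell in gfi1b-/-, 1 rose and 1 fell in gfi1ab-/-, and 0 rose and 1 fell in gfi1b/1ab DM. Shares of all genes at an unadjusted p under 0.05 were not counted, here or below. With DESeq2 the called members were 0 in gfi1aa-/- and gfi1ab-/- and 1, lower, in gfi1b-/- and in gfi1b/1ab DM. In gfi1 TM DESeq2 called 2, without gadd45aa, and in gfi1aa/1ab DM 2. The median log2 fold change of the 8 genes was 0.38 in gfi1 TM and 0.44 in gfi1aa/1ab DM, beside 0.01 over all genes in both, and between -0.21 and 0.02 in the other mutants.

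**Figure D2:**
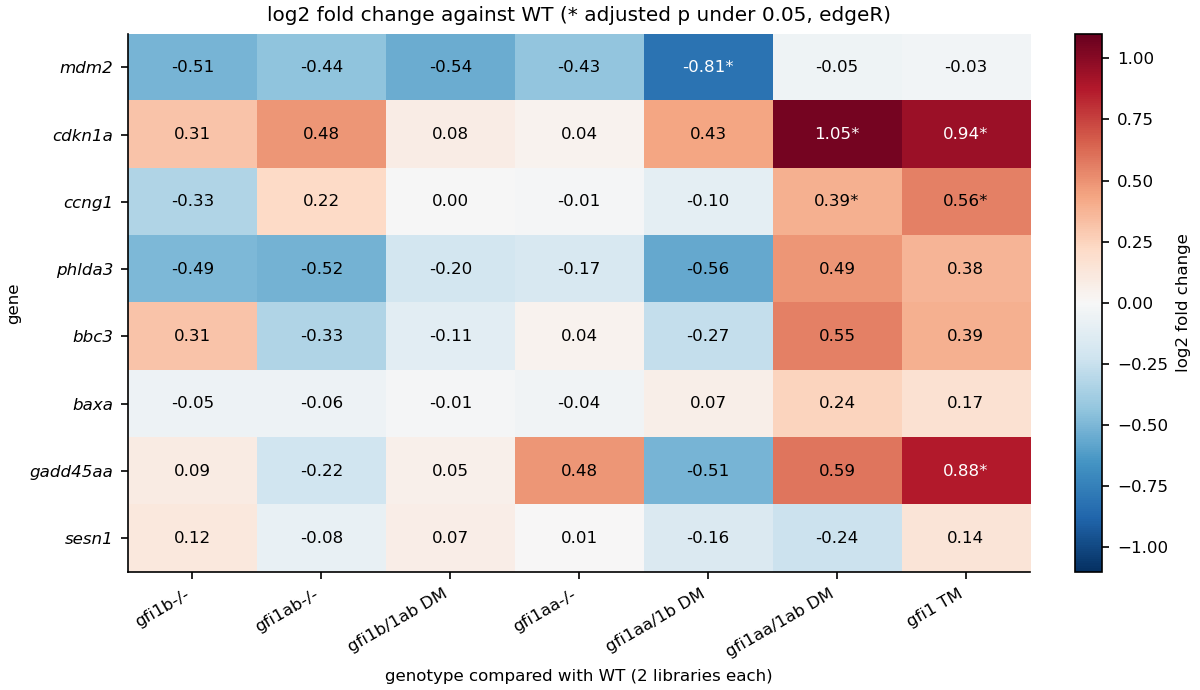
log2 fold change against WT (colour and printed value) of the 8 genes (rows) in each mutant (columns), 2 libraries per genotype. A star marks an adjusted p under 0.05 in the edgeR test. The starred values are mdm2 in gfi1aa/1b DM (-0.81), cdkn1a and ccng1 in gfi1aa/1ab DM (1.05 and 0.39), and cdkn1a, ccng1 and gadd45aa in gfi1 TM (0.94, 0.56 and 0.88).

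mdm2 (ENSDARG00000033443), the negative regulator, had its highest mean in WT, and among the mutants in gfi1 TM and gfi1aa/1ab DM. Its levels were 85.7 and 74.1 CPM in WT, 60.7 and 57.5 in gfi1aa-/-, 54.7 and 57.2 in gfi1b-/-, and 55.2 and 62.2 in gfi1ab-/-. Among double mutants, gfi1aa/1b DM had 44.7 and 46.3 CPM, gfi1b/1ab DM 56.0 and 53.7, and gfi1aa/1ab DM 64.5 and 89.5. gfi1 TM had 60.8 and 96.3 CPM. WT lay above all 10 libraries of the other 5 mutants, while gfi1aa/1ab DM and gfi1 TM each had 1 library above both WT libraries and 1 below both.

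Against WT, mdm2 fell by 0.81 in gfi1aa/1b DM (log2, SE 0.17, adjusted p = 0.0085). The log2 fold changes in the single mutants and gfi1b/1ab DM, from -0.54 to -0.43, did not pass the test (lowest adjusted p 0.0565). In gfi1aa/1ab DM and gfi1 TM they were -0.05 and -0.03. So the raised cdkn1a and ccng1 of these genotypes stood beside an mdm2 level that was not above WT. The fall in gfi1aa/1b DM was -0.70 to -0.84 and no longer past the threshold without WT replicate 1 or without either library of the double mutant. In the average of all mutants mdm2 fell by 0.40 (SE 0.12, adjusted p = 0.0403), a call lost without 10 of the 16 libraries in turn. That value was -0.30 (adjusted p = 0.351) without WT replicate 1.

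Both genes of cell death had no call against WT. bbc3 (ENSDARG00000069282) encodes Puma, which triggers apoptosis by binding the Bcl-2 family. WT had 2.05 and 2.24 CPM, gfi1 TM 2.62 and 3.0, gfi1aa/1ab DM 2.41 and 3.87, and the other mutants 1.40 to 3.05. Its libraries overlapped. Against WT its log2 fold change was 0.55 in gfi1aa/1ab DM (SE 0.30, edgeR adjusted p = 0.209). In gfi1 TM it was 0.39 (SE 0.30, adjusted p = 0.436), and neither value passed.

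baxa (ENSDARG00000020623) encodes Bax, which permeabilizes mitochondria in apoptosis. WT had 67.4 and 64.6 CPM, gfi1 TM 75.2 and 73.4, and gfi1aa/1ab DM 72.5 and 83.5. Of the other libraries only gfi1aa/1b DM replicate 2, with 73.8 CPM, lay in the same range. In the edgeR test against WT, baxa did not pass in gfi1aa/1ab DM (0.24, adjusted p = 0.0512) or gfi1 TM (0.17, adjusted p = 0.197). But it rose in gfi1aa/1ab DM against gfi1ab-/- (0.30, SE 0.084, adjusted p = 0.0293) and against gfi1aa-/- (0.28, adjusted p = 0.0284). Without gfi1aa/1ab DM replicate 2 these 2 values were 0.19 (adjusted p = 0.253) and 0.17 (adjusted p = 0.26). The first was also not called without gfi1ab-/- replicate 2 (0.25) or gfi1aa-/- replicate 1 (0.28), and the second without either gfi1aa-/- library (0.22 and 0.29). With DESeq2 the rise against gfi1aa-/- did not pass (adjusted p = 0.0544). Reads that map to several places were left out of the counts, so baxa is uncertain where its 2 rows or baxb share sequence.

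phlda3 (ENSDARG00000037804), known in mammals as an inhibitor of Akt signalling, had 4.25 and 4.29 CPM in WT, 5.68 and 5.39 in gfi1 TM, and 3.44 and 8.47 in gfi1aa/1ab DM. The other 10 libraries had 2.51 to 4.18 CPM, all below WT. gfi1aa/1ab DM replicate 2 alone had 2.46 times the level of replicate 1. The rise against gfi1ab-/- (1.01, SE 0.31, adjusted p = 0.0434) was 0.21 (adjusted p = 0.686) without that library. In all, 13 of the 16 fits without 1 library no longer called it, and in the other 12 of these the value was 0.98 to 1.01 (adjusted p = 0.052 to 0.182). Against WT neither gfi1aa/1ab DM (0.49, adjusted p = 0.262) nor gfi1 TM (0.38, adjusted p = 0.439) passed the test.

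sesn1 (ENSDARG00000020693) encodes sestrin 1, a stress protein that restrains mTORC1 signalling in mammals. WT had 16.4 and 18.1 CPM, gfi1 TM 18.8 and 19.2, and gfi1aa/1ab DM 12.5 and 16.7, and its range over all libraries was 12.5 to 19.2. gfi1 TM was the highest genotype and gfi1aa/1ab DM the lowest, and no comparison of sesn1 passed the test. Without gfi1aa/1ab DM replicate 2, sesn1 passed as lower in gfi1aa/1ab DM than in WT (-0.46, adjusted p = 0.0337).

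The 2 libraries of gfi1aa/1ab DM differed in the same direction for most of these genes. Replicate 2 was higher than replicate 1 for 7 of 8 genes, at 1.15 to 2.46 times the level, and only gadd45aa was lower, at 0.888 times. In the other genotypes replicate 2 was higher for 3 to 5 of the 8. In gfi1 TM the ratios ran from 0.705 (gadd45aa) to 1.58 (mdm2). Over all genes the log2 difference between replicates had a standard deviation of 0.602 for gfi1 TM and 0.479 for gfi1aa/1ab DM, above the 0.347 to 0.427 of the other 6 genotypes. Without gfi1aa/1ab DM replicate 2, 1 of 8 genes rose (cdkn1a, 0.85, adjusted p = 0.0227) and 1 fell (sesn1) in that genotype against WT. Without replicate 1, 4 rose.

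Averaged over the backgrounds, each gene's loss compares 4 genotypes with 4, or 8 libraries with 8. With loss of gfi1aa 3 of 8 genes rose (7.08% of all genes rose) and none fell. cdkn1a rose from a mean of 4.39 CPM (SD 0.699, n = 8) to 5.95 (SD 1.81, n = 8), or by 0.40 on the log2 scale (SE 0.096, adjusted p = 0.0124), and 5 of the 8 libraries lacking gfi1aa lay above all 8 others. ccng1 rose from 396 ± 57.7 to 470 ± 109 CPM (0.23, SE 0.060, adjusted p = 0.0169), with 3 libraries above all others. baxa rose from 64.7 ± 2.33 to 71.4 ± 6.83 CPM (0.14, SE 0.042, adjusted p = 0.0369), with 5 above all others. cdkn1a kept the call in all 16 fits without 1 library. ccng1 lost it without gfi1aa/1b DM replicate 2 (0.21, adjusted p = 0.0527), and baxa lost it in 11 fits. With DESeq2 baxa did not pass (adjusted p = 0.0606). With 1 mean for the 4 genotypes on each side, which leaves differences between genotypes in the error, none of the 3 passed (adjusted p = 0.224 for cdkn1a, 0.352 for ccng1 and 0.201 for baxa).

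With loss of gfi1ab 2 of 8 genes rose (12.7% of all genes rose) and none fell. ccng1 rose from 372 ± 38.6 to 494 ± 90.4 CPM, a log2 fold change of 0.40 (SE 0.060, adjusted p = 0.000431), and 6 of 8 libraries lay above all others. cdkn1a rose from 4.32 ± 0.734 to 6.03 ± 1.71 CPM (0.44, SE 0.096, adjusted p = 0.0045), with 4 of 8 above all others. Both calls held in all 16 fits without 1 library. With 1 mean for the genotypes on each side ccng1 passed (adjusted p = 0.0235) and cdkn1a did not (adjusted p = 0.0871).

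Loss of gfi1b changed none of the 8 genes in the edgeR test, where 9.74% of all genes changed. At an unadjusted p under 0.05 only mdm2 was lower (-0.24, adjusted p = 0.0937), and with DESeq2 1 member passed as lower. The median of the 8 log2 fold changes was 0.22 for gfi1aa, 0.24 for gfi1ab and -0.04 for gfi1b, beside 0.00, 0.01 and 0.01 over all genes. Whether the effects of the 3 genes differ from each other was not tested.

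Since the highest levels were in the genotypes without gfi1aa and gfi1ab, the effect of losing gfi1aa was read in each of the 4 backgrounds. cdkn1a had log2 fold changes of 0.04 in WT and 0.12 in gfi1b-/-, but 0.57 (SE 0.18, adjusted p = 0.0532) in gfi1ab-/- and 0.86 (SE 0.19, adjusted p = 0.0313) in gfi1b/1ab DM. mdm2 had -0.43 and -0.30 in the first pair of backgrounds and 0.39 and 0.52 in the second, none of them past the test. phlda3 had -0.17 and -0.07 against 1.01 and 0.58, and bbc3 0.04 and -0.58 against 0.88 and 0.50. In WT and in gfi1b-/-, where 12.1% and 4.67% of all genes changed on loss of gfi1aa, none of the 8 passed in edgeR or DESeq2 (at an unadjusted p under 0.05, 1 was lower in each). In gfi1b/1ab DM, where 1.05% of all genes rose on loss of gfi1aa, 2 of 8 rose (cdkn1a, and ccng1 with 0.56 and adjusted p = 0.0277), and in gfi1ab-/-, where 5.88% rose, 2 of 8 rose (phlda3 and baxa, neither called without gfi1aa/1ab DM replicate 2). The 2 rises in gfi1b/1ab DM were lost without either of its 2 libraries, cdkn1a also without gfi1b-/- replicate 1 or gfi1aa-/- replicate 1. In that background cdkn1a did not pass with DESeq2 (adjusted p = 0.0503).

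**Figure D3:**
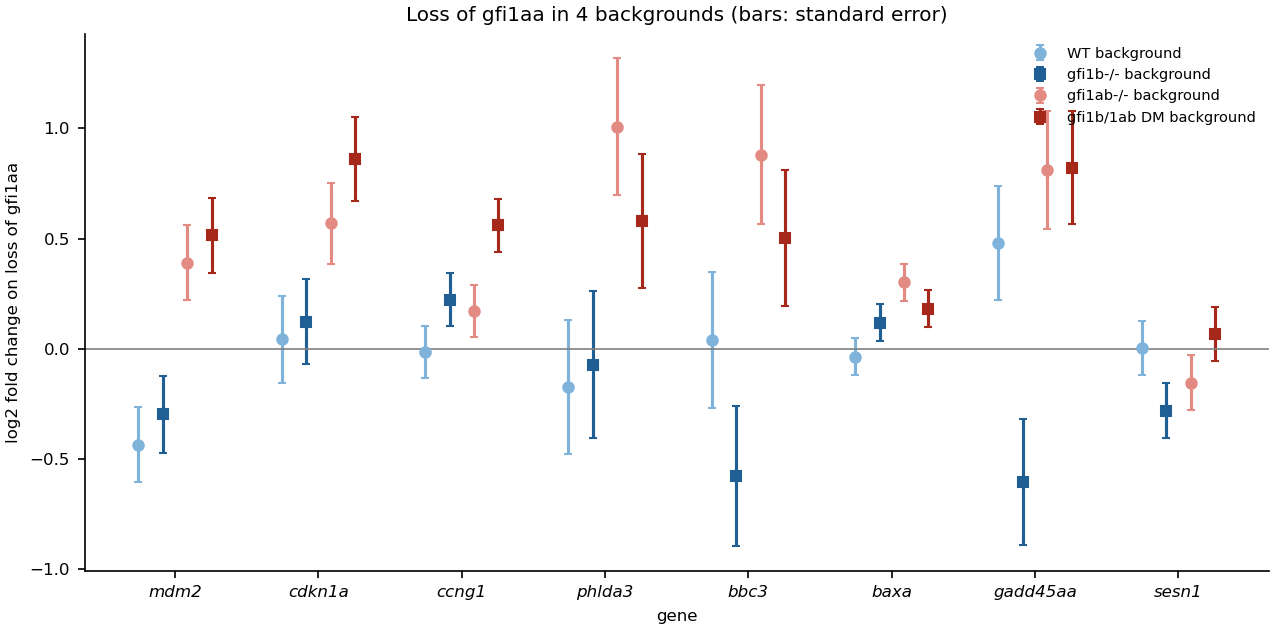
log2 fold change on loss of gfi1aa (vertical axis) for the 8 genes (horizontal axis) in 4 backgrounds, 2 libraries against 2 in each, with bars for the standard error. Blue symbols are backgrounds with gfi1ab (WT and gfi1b-/-) and red symbols those without it (gfi1ab-/- and gfi1b/1ab DM). The red symbols lie above the blue ones for mdm2 (0.39 and 0.52 beside -0.43 and -0.30) and for every other gene except ccng1 and sesn1, where they mix.

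The difference itself was tested as the interaction of gfi1aa with gfi1ab. It was positive for 8 of 8 genes, where 51.4% of all genes had a positive value, and its median was 0.73 on the log2 scale, beside 0.01 over all genes. At an unadjusted p under 0.05, 7 of 8 passed, but the share of all genes that did so was not counted. The 8 values are also not independent, since most pairs of these genes were positively correlated between libraries. After adjustment only mdm2 passed (0.82, SE 0.17, adjusted p = 0.00914), so that 1 of 8 was called where 3.79% of all genes were called in that direction. cdkn1a (0.63, adjusted p = 0.0535), gadd45aa (0.88, adjusted p = 0.0556), bbc3 (0.96, adjusted p = 0.0704) and phlda3 (0.92, adjusted p = 0.0822) missed the threshold. The value of mdm2 held its call in all 16 fits without 1 library, at 0.63 to 0.97, the lower end being the value without gfi1 TM replicate 2 (adjusted p = 0.00293). Its levels show what it measures. The log2 fold changes of mdm2 against WT were -0.43 in gfi1aa-/- and -0.44 in gfi1ab-/-, neither past the test, and -0.05 in gfi1aa/1ab DM. Without gfi1aa/1ab DM replicate 1, 5 members passed, and without replicate 2 only mdm2 did. Without the filter on low counts 6 of 8 passed.

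The interactions of gfi1aa with gfi1b and of gfi1b with gfi1ab called none of the 8 in edgeR (4.02% and 3.29% of all genes passed) and none in DESeq2, with 1 member higher at an unadjusted p under 0.05 in the first and 3 higher and 1 lower in the second. Between gfi1aa/1ab DM and its single mutants, 3 of 8 genes rose against gfi1aa-/- (11.7% of all genes rose), namely cdkn1a (1.01, SE 0.19, adjusted p = 0.00225), ccng1 (0.40, adjusted p = 0.0246) and baxa. The value of ccng1 was 0.12 without gfi1aa/1ab DM replicate 2, and it was not called without either gfi1aa-/- library. gfi1 TM against gfi1aa/1b DM, which adds the loss of gfi1ab, also raised 3 of 8 (2.43% of all genes rose), namely gadd45aa, ccng1 (0.66, adjusted p = 0.00759) and mdm2 (0.78, adjusted p = 0.0199). Each was lost in at least 1 fit without 1 library. The mdm2 value was 0.42 (adjusted p = 0.0694) without gfi1 TM replicate 2. gfi1 TM and gfi1aa/1ab DM were not distinguished by any of the 8 genes, with log2 fold changes from -0.17 to 0.38 (5.06% of all genes passed). At an unadjusted p under 0.05 1 was higher, DESeq2 called 0, and the SE of the differences ran from 0.084 for baxa to 0.30 for bbc3.

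Most pairs of the 8 genes were positively correlated. Over the 16 libraries, 25 of 28 pairs had a positive Pearson r of log2 CPM (median 0.48, range -0.24 to 0.81), where 49.9% of all pairs of the 19903 tested genes were positive, with a median r of -0.0011. For cdkn1a and ccng1, r was 0.75 (permutation test, adjusted p over the 28 pairs = 0.0112) and Spearman's rho 0.65 (permutation test, adjusted p = 0.0884). After leaving out the 2 libraries farthest from the median of cdkn1a, r was 0.53. In all, 9 pairs passed by Pearson's r and 0 by rho, and r without the 2 farthest libraries was 0.16 to 0.66 for these 9, so that part of the relation rests on few libraries. After genotype means were subtracted, 21 of 28 pairs remained positive (median 0.40), with 0.81 for cdkn1a and ccng1. gadd45aa then had negative values with all 7 other genes, -0.66 with mdm2. sesn1 had the 3 negative pairs over all libraries, with cdkn1a, ccng1 and baxa, and these turned positive after the subtraction (0.12, 0.50 and 0.13). The values after subtraction rest on the difference between the 2 replicates of each genotype. In gfi1aa/1ab DM replicate 2 was higher for 7 of 8 genes, and values without that genotype were not computed. The libraries of a genotype share its embryos' cross. The permutations treated all 16 libraries as independent, so their p-values may be too small.

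**Figure D4:**
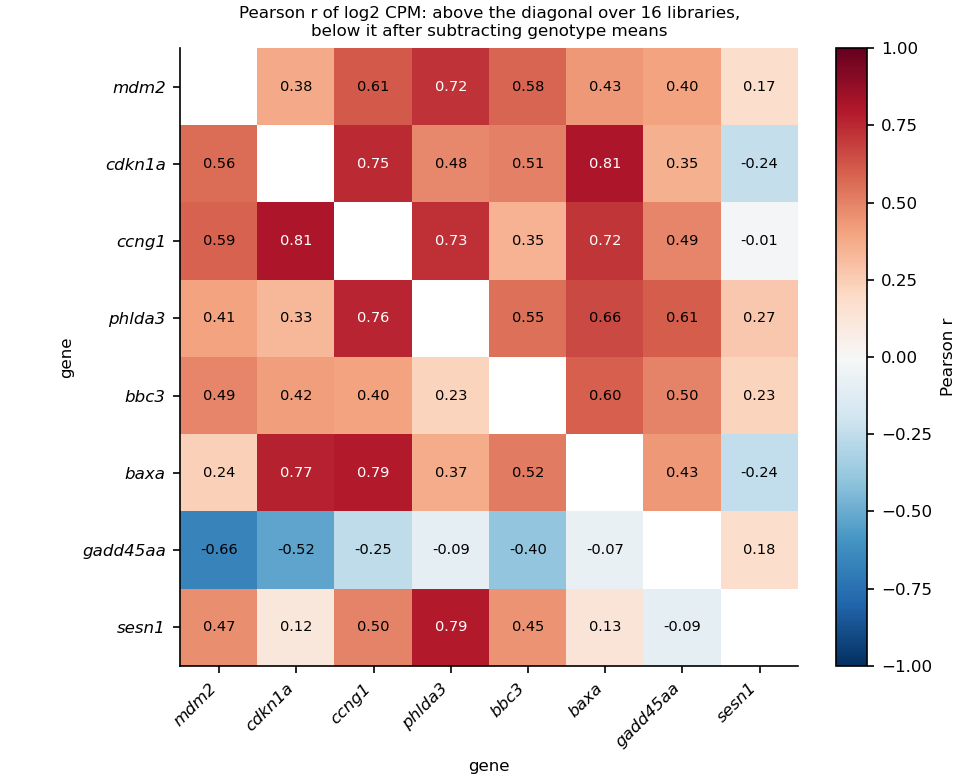
Pearson r of log2 CPM between pairs of the 8 genes (rows and columns), above the diagonal over 16 libraries and below it after subtracting each genotype's mean. Colours run from blue (-1) to red (1). The pair cdkn1a and baxa has the highest value above the diagonal (0.81), and gadd45aa has values below 0 with all 7 others below it.

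The genes most like each member, by Pearson r of log2 CPM over the 16 libraries, were rbl2 (0.87), casp8 (0.85) and rps27l (0.85) for phlda3. For mdm2 they were nsfb (0.90), cmlc1 (0.88) and arl4ca (0.85), for cdkn1a timm10b (0.90), mrpl45 (0.89) and ppifa (0.88), and for ccng1 tcf25 (0.92), plvapb (0.88) and ndufs7 (0.87). bbc3 was most like rgp1 (0.83), dtd1 (0.80) and pla2g7 (0.80), baxa like CU856520.1 (0.88), ing2 (0.88) and psmg2 (0.86), gadd45aa like rhbdf1a (0.87), sft2d3 (0.84) and rtn4ip1 (0.84), and sesn1 like si:ch73-21g5.7 (0.85), ankrd22 (0.83) and nin (0.82). No member was among the 3 genes most like another member. casp8 and rps27l are known p53 targets in mammals. Each gene was picked as the highest of the correlations with all tested genes, and how high these run for other genes was not counted. phlda3 had 8.47 CPM in gfi1aa/1ab DM replicate 2 and 3.44 in replicate 1. Its values were not computed without replicate 2, nor those of mdm2 without gfi1 TM replicate 2.

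A list of 41 other p53 targets, of which 37 could be tested, moved in both directions. In gfi1 TM against WT 2 rose and 2 fell, and in gfi1aa/1ab DM 3 rose and 4 fell, with medians of 0.02 and -0.03 beside 0.01 for all genes. The shares that rose were 5.41% and 8.11%, beside 7.16% and 11.1% of all genes. The shares that fell were 5.41% and 10.8%, beside 5.95% and 11.9% of all genes. Loss of gfi1aa raised 6 (16.2%, beside 7.08% of all genes) and lowered 4 (10.8%, beside 7.47%). Loss of gfi1ab raised 5 (13.5%, beside 12.7%) and lowered 1 (2.70%, beside 11.2%). Loss of gfi1b raised none (4.71% of all genes rose) and lowered 3 (8.11%, beside 5.03%). The targets that rose with loss of gfi1aa included plk2b (0.57, adjusted p = 0.00108), a polo-like kinase, and sesn2 (0.28, adjusted p = 0.00901), a further sestrin. sesn2 also rose in gfi1aa/1ab DM (0.50) and gfi1 TM (0.54) against WT, as did triap1 (0.41 and 0.49), an inhibitor of apoptosis. pmaip1, which encodes the apoptosis trigger Noxa, fell with loss of gfi1aa (-0.60, adjusted p = 0.00107).

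With loss of gfi1ab, pcna (0.24) and triap1 (0.22) rose and baxb, a further Bax gene, fell (-0.76, adjusted p = 0.000624). Against WT the average of all mutants had lower baxb (-0.85), pidd1 (-0.64), which builds a complex that activates caspase 2 in mammals, and gadd45ba (-0.34). Loss of gfi1b lowered rrm2b (-0.48), sesn3 (-0.47) and pidd1 (-0.33).

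Of 13 regulators of the p53 pathway (among them kinases and acetylases), none rose in gfi1aa/1ab DM or gfi1 TM against WT (11.1% and 7.16% of all genes rose). In these genotypes 2 and 1 fell (15.4% and 7.69%, beside 11.9% and 5.95% of all genes). ep300b, a p300 acetylase, fell with loss of gfi1ab (-0.31, adjusted p = 0.000957) and with loss of gfi1aa (-0.18, adjusted p = 0.0311), and atm, the kinase that reports DNA breaks, fell with loss of gfi1ab (-0.19, adjusted p = 0.0404). Of 21 genes of the apoptosis machinery tested, 4 rose (19.0%, beside 11.1% of all genes) and none fell (11.9% of all genes fell) in gfi1aa/1ab DM. The list holds genes that promote apoptosis and genes that oppose it, so its count does not give a direction of cell death. In gfi1 TM none rose (7.16% of all genes rose) and 1 fell (4.76%, beside 5.95%). diabloa (0.32) and bcl2l10 (0.22) rose with loss of gfi1ab, and xiap, a caspase inhibitor, fell in the average of all mutants (-0.44) and with loss of gfi1b (-0.42).

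**Figure D5:**
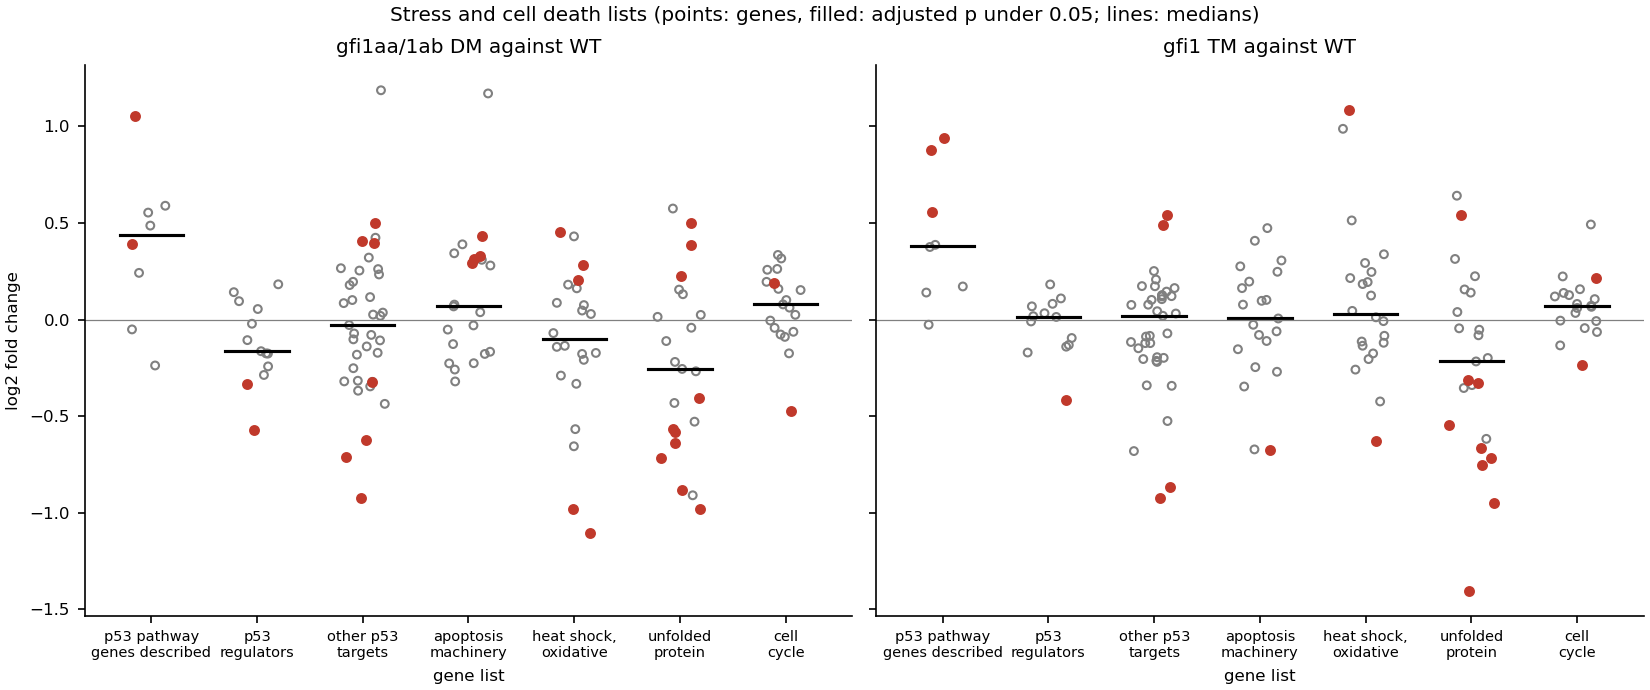
log2 fold change against WT (vertical axis) in gfi1aa/1ab DM (left) and gfi1 TM (right) for the 8 p53 pathway genes and 6 other lists (horizontal axis). Points are genes, filled where the adjusted p was under 0.05, and lines are list medians. The 8 genes have medians of 0.44 and 0.38, the other p53 targets -0.03 and 0.02, and the unfolded protein list -0.26 and -0.22.

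Other stress lists differed in direction. Of 23 genes of the unfolded protein and integrated stress responses, 2 rose and 9 fell in the average of all mutants (39.1% fell, beside 8.06% of all genes), with a median of -0.20. Among them edem1 (-0.61), hsp90b1 (-0.66) and atf6 (-0.50), which serve the response to unfolded proteins in the endoplasmic reticulum, were lower. So was ddit4 (-1.19), an inhibitor of mTORC1 that is also a p53 target in mammals. In gfi1 TM 1 rose and 8 fell (4.35% and 34.8%, beside 7.16% and 5.95% of all genes). In gfi1aa/1ab DM 3 rose and 7 fell (13.0% and 30.4%, beside 11.1% and 11.9% of all genes). sesn2, the gene that rose in gfi1 TM, is on the target list too. All comparisons with WT share its 2 libraries, and the count for this list without either of them is not given here. Of the 23 genes none changed between gfi1 TM and gfi1b/1ab DM (1.05% of all genes rose and 0.909% fell). Loss of gfi1b raised 0 and lowered 5 (21.7%, beside 5.03% of all genes). Of 22 heat shock and oxidative stress genes, 8 rose and 2 fell with loss of gfi1ab (36.4% rose, beside 12.7% of all genes). The mitochondrial chaperone genes hspe1 (0.31) and hspd1 (0.22) and the cytosolic hsp90aa1.1 (0.25) were among those that rose. cdkn1a and ccng1 rose with loss of gfi1ab and also with loss of gfi1aa. With loss of gfi1aa 1 of the 22 rose and 1 fell (4.55% each, beside 7.08% and 7.47% of all genes). Against WT, 3 rose and 2 fell in gfi1aa/1ab DM (13.6% and 9.09%, beside 11.1% and 11.9% of all genes). In gfi1 TM 1 rose and 1 fell (4.55% each, beside 7.16% and 5.95% of all genes). Of 19 cell cycle genes, loss of gfi1ab raised 7 (36.8%, beside 12.7% of all genes) and lowered 1 (5.26%, beside 11.2%). Among them were mcm5 (0.17) and mcm2 (0.14), which license DNA replication, and bub1, which fell (-0.13). In gfi1 TM and gfi1aa/1ab DM against WT 1 rose and 1 fell in each (5.26% each). Of all genes 7.16% rose and 5.95% fell in gfi1 TM, and 11.1% rose and 11.9% fell in gfi1aa/1ab DM.

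Markers of several cell types also differed between genotypes. With loss of gfi1aa all 7 erythroid markers fell (7.47% of all genes fell) and all 6 endothelial markers rose (7.08% rose). These are genes that the paper showed as lower or higher in gfi1aa mutants from these same libraries, so this outcome was known in advance. Summed CPM of the erythroid markers was 14.9 to 26.1 in the libraries lacking gfi1aa and 64.0 to 96.3 in the others, and that of the endothelial markers 164 to 215 and 110 to 126. Both lists separated the libraries lacking gfi1aa from all others. With loss of gfi1ab 7 of 9 muscle markers and 3 of 3 epidermis markers rose, where 12.7% of all genes rose. Summed muscle CPM was 627 to 659 in WT, 684 to 720 in gfi1b-/-, 545 to 591 in gfi1aa-/- and 608 to 613 in gfi1aa/1b DM. Without gfi1ab it was 702 to 887 in gfi1ab-/-, 657 to 784 in gfi1b/1ab DM, 662 to 696 in gfi1aa/1ab DM and 696 to 809 in gfi1 TM. Summed epidermis CPM was 15229 to 15665 in WT, 14506 to 15116 in gfi1b-/-, 14128 to 15374 in gfi1aa-/- and 20137 to 20353 in gfi1aa/1b DM. Without gfi1ab it was 17691 to 19586 in gfi1ab-/-, 17874 to 19318 in gfi1b/1ab DM, 20169 to 22707 in gfi1aa/1ab DM and 16907 to 18336 in gfi1 TM. Epidermis CPM was thus higher in gfi1aa/1b DM than in gfi1 TM, and higher in gfi1b/1ab DM than in WT. No marker was at 0 in all libraries. The part of cell type shares or of stage in the levels of the 8 genes was not tested.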

How the data were processed

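RNA from 16 libraries (8 genotypes, 2 each) was analysed. Per the labels and the methods, the authors mapped reads with STAR to GRCz11 and deposited raw counts per gene for each library, which were used as they are, in the column that joins both strands. A deposited table of all libraries gave the gene symbols (an other value, not a measurement). The 4 lines per library for reads outside genes were left out; 77.3% to 80.4% of reads were on genes. edgeR (4.0.16, R 4.3.3) was used with TMM factors of 0.956 to 1.03, filterByExpr (19903 of 28451 detected genes kept) and 1 mean per genotype with 8 residual degrees of freedom, common dispersion 0.00835. Averaged comparisons contrast means of genotype means. Alternatives were DESeq2 (1.42.0), RLE factors, no filter, a replicate block, fewer means or libraries, and leaving out each library. Correlations used log2 CPM with a prior count of 2 and 100000 permutations (two-sided). Named genes are the 8 members, up to 4 genes with the lowest adjusted p of each list in each averaged comparison (casp8 by its likeness) and the 3 genes most like each member; 2 further genes that the rule names are not reported here, 1 of them also left out of the list of regulators. Members, lists and rules were chosen with earlier results of these data known. The edgeR step was tested on simulated data. Python (3.11.15) made the tables.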

Additional observations from a re-analysis of the deposited data

Results flagged for a closer look

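The effect of losing gfi1aa on mdm2 differed between backgrounds with and without gfi1ab, by a test of the difference itself. The interaction of gfi1aa with gfi1ab was 0.82 on the log2 scale (SE 0.17, edgeR adjusted p = 0.00914). Mean mdm2 was 79.9 CPM in WT and 59.1 in gfi1aa-/-, and 55.9 in gfi1b-/- and 45.5 in gfi1aa/1b DM. Where gfi1ab was missing, it was 58.7 CPM in gfi1ab-/- and 77.0 in gfi1aa/1ab DM, and 54.8 in gfi1b/1ab DM and 78.5 in gfi1 TM. None of these 4 differences passed the test on its own (edgeR adjusted p = 0.117, 0.395, 0.144 and 0.146). Without gfi1 TM replicate 2, which stood apart in its share of reads on genes, the interaction was 0.63 (adjusted p = 0.00293). The libraries of gfi1aa/1ab DM (64.5 and 89.5 CPM) and gfi1 TM (60.8 and 96.3 CPM) lay farther apart than those of any other genotype.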

How the results depend on the processing

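Of 3768 refits of 184 values for the 8 genes, 3564 kept their side of the threshold, 107 lost and 97 gained a call, and 87 of those that stayed uncalled had the other sign. No called value changed sign. Against 2 called genes in the average of all mutants, 1 was called by DESeq2, by the replicate block and without the filter on low counts, and 0 with 2 means only. With 2 means only, which leaves differences between genotypes in the error, loss of gfi1aa called 0 in place of 3 and loss of gfi1ab 1 in place of 2. Without the filter loss of gfi1b called 2 in place of 0, gfi1b-/- 2, gfi1ab-/-, gfi1b/1ab DM and gfi1aa-/- 1 each in place of 0, all lower, and the interactions of gfi1aa with gfi1b, gfi1aa with gfi1ab and gfi1b with gfi1ab 1, 6 and 1 in place of 0, 1 and 0. DESeq2 called 1 in place of 0 for loss of gfi1b, gfi1b-/- and gfi1b/1ab DM. It called 2 in place of 3 for loss of gfi1aa, without baxa, and 2 in place of 3 for gfi1 TM, without gadd45aa. From the 4 libraries compared alone, gfi1b-/- called 2 and gfi1ab-/-, gfi1b/1ab DM and gfi1aa-/- 1 each in place of 0, gfi1aa/1ab DM 1 in place of 2 and gfi1 TM 0 in place of 3. The cause was not tested.

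Replicate numbers did not pair the libraries (correlations of -0.091 to 0.092 over 28 pairs of genotypes). With the replicate block the counts were 1 in place of 2 for all mutants and 1 in place of 0 for gfi1b/1ab DM, and no other count of members moved by over 1.5 times. Leaving out 1 library gave 0 to 2 called genes for all mutants, 1 to 4 for loss of gfi1aa, 0 to 2 for loss of gfi1b, 2 to 3 for loss of gfi1ab, 0 to 1 each for gfi1b-/-, gfi1ab-/-, gfi1b/1ab DM, gfi1aa-/- and gfi1aa/1b DM, 1 to 4 for gfi1aa/1ab DM, 0 to 3 for gfi1 TM, and 0 to 1, 1 to 5 and 0 to 1 for the interactions of gfi1aa with gfi1b, gfi1aa with gfi1ab and gfi1b with gfi1ab. Where 1 library was left of a genotype, it was assumed to vary like the others.

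Over all genes, 2 means only called 513 in place of 3069 for all mutants, 269 in place of 2896 for loss of gfi1aa, 126 in place of 1939 for loss of gfi1b and 1048 in place of 4761 for loss of gfi1ab. The 4 libraries alone called 153 in place of 2610 for gfi1 TM. Without the filter the interactions called 1706, 2718 and 1482 in place of 800, 1712 and 654. The median of all genes stayed within 0.028 (log2) of 0. The shallowest members, bbc3, gadd45aa, cdkn1a and phlda3, had at most 156 counts per library.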
